A study of Rattus norvegicus with 2 samples.

Results

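The immediate early genes considered here are 38 genes listed by symbol as members of the class. They were measured among 39500 genes and unnamed transcripts in hypothalamus from both sexes of the spontaneously hypertensive rat (SHR), which is inbred and becomes hypertensive as it ages. The male pool held equal amounts of total RNA (100 ng each) from 5 SHR males aged 9 weeks, and the female pool held the same from 5 SHR females of that age. Each pool was hybridised to 1 single-colour microarray, so no test between the sexes was possible and every difference describes these 2 pools. All rats were killed with ether and then decapitated, and the tissue taken was a block containing the hypothalamus. All 38 members matched a probe through their RefSeq accessions, with 51 probes among them, and the brightest probe stood for each gene.

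Immediate early genes are transcribed within minutes of a stimulus and need no new protein for it. In neurons, calcium entry and receptor signals act through MAP kinases, calmodulin-dependent kinases and protein kinase A on the factors SRF, CREB and MEF2, which sit on the promoters of these genes beforehand. Many members are transcription factors that set off a later wave of genes, others act at synapses, and dual-specificity phosphatases switch the kinases off again. In the hypothalamus Fos is a common marker of neurons that were recently active, and ether is a stressor known to raise it there. The labels state neither the interval between exposure and freezing nor the time of day, so the level before killing and the response to it cannot be told apart in either pool.

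Signals are given as a percentage of the array's 75th percentile of spot signal, which was 2203 units for the male pool and 2254 units for the female pool. A probe's signal depends on its own sequence, so it is compared between the pools and not between genes. Differences are log2 signal in the male pool minus log2 signal in the female pool, so a positive value means more signal in the male pool. The only error available is the technical SD, the spread of the difference between repeat spots of a probe. For 1 spot it was 0.038 for signals above the 75th percentile, 0.056 at log2 signals of -2 to 0, 0.097 at -4 to -2, 0.18 at -6 to -4 and 0.33 below -6, the last from 6 probes. It covers printing and scanning, not rats or arrays, and arrays rather than spots limit the precision. Some spots lay in patches, where 2 or more of the 18 closest measured spots belonging to other probes also differed by 2-fold or more in 1 direction. Patches held 11.3% of spots. Local background medians were 33 units on both arrays, and 71.6% and 73% of spots on the male and female arrays were well above background by the scanner software's flag. In the list of hypothalamic markers, 14 of 16 genes were well above background on both arrays, among them Avp, Oxt, Hcrt and Pmch. Nr5a1 passed the flag on neither array, and Otp on the female array only.

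Promoters are shown for the members with the largest differences outside patches, because these genes are switched on through short elements close to the start site. By size of difference the rule took Nr4a1, Fos, Nr4a3, Egr1 and Fosb, and the sequences are those of RefSeq (GRCr8) for Nr4a1, Egr1 and Fosb. Each run covers 250 bases before to 50 bases after the start, 5′ to 3′ on the gene's strand. Capitals mark matches, on either strand, to the serum response element, the CRE core TGACG and the EGR site GCGNGGGCG. The windows are chr7:134259888-134260187 (plus strand) for Nr4a1, chr18:26736828-26737127 (plus strand) for Egr1 and chr1:88089135-88089434 (minus strand) for Fosb.
Nr4a1: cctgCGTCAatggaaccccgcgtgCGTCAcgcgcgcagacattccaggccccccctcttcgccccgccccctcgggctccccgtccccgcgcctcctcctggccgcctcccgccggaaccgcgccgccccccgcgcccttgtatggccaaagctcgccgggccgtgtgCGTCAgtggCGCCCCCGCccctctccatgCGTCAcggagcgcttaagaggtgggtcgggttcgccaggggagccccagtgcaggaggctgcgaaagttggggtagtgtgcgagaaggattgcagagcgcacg
Egr1: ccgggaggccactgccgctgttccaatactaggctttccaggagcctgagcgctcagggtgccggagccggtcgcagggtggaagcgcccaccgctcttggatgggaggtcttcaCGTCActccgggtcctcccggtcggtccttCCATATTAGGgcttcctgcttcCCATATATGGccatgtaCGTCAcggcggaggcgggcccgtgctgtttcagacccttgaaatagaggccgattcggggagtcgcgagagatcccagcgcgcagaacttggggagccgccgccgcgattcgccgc
Fosb: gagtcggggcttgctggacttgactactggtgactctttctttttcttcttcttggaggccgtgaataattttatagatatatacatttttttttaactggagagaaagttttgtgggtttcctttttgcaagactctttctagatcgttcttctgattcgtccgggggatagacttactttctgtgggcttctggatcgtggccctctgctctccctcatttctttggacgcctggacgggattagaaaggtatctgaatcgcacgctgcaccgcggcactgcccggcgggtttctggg

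The Egr1 window held a pair of serum response elements, starting at -105 and -83 from the gene's start, and CRE cores at -135 and -66. The Nr4a1 window held 4 CRE cores, the closest at -53, and an EGR site at -73. No motif searched was found in the Fosb window. Over all 29 members with a promoter in the table, a serum response element was present in 6 (20.7%), against 1.77% of 27457 genes. These were Dusp5, Egr1, Egr2, Klf6, Srf and Zfp36. The full CRE, TGACGTCA, was present in 7 members (24.1%), against 2.00% of genes, in Btg2, Crem, Dusp1, Ier2, Jund, Maff and Plk2. The core alone, which every full CRE also contains, was present in 18 members (62.1%), against 23.0% of genes. The EGR site was present in 8 members (27.6%), against 5.53%, and the AP-1 site TGANTCA in 1 member, Sgk1 (3.45%), against 8.04%. The 7 members with a full CRE had a median difference between the pools of 0.11 (-0.24 to 0.27), and the 20 measured members without one had a median of 0.078. The 5 measured members with a serum response element had a median of 0.00 (-0.06 to 0.44), and the 22 without one had a median of 0.11. A match is a description of the letters and not a bound site.

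Of the 38 members, 36 were well above background on both arrays and 2 on neither. Of these 36, 30 were higher in the male pool and 6 lower, where 45.0% of all 24134 genes and transcripts were higher. Their median difference was 0.10, against -0.016 over all genes. The middle 50% of members lay between 0.015 and 0.26, and that of all genes between -0.098 and 0.071. Differences were small: 15 members were within 0.1 log2 units and 32 within 0.5. Only Fosl1 and Fosl2 passed 2-fold (2 of 36, where 1.16% of genes did so towards the male pool), both on spots in patches. Both also passed 1.5-fold, where 2.16% of genes did so towards the male pool. No member passed either fold towards the female pool, where 0.613% of genes passed 2-fold and 1.25% passed 1.5-fold. Without spots in patches 31 members had a value, and none passed either fold. Fosl1 then had no value, and Fosl2 stood on a dimmer probe, at 0.26. A difference of over 2 technical SD was found in 17 members towards the male pool (10.0% of genes) and in 1 towards the female pool (12.9% of genes). The technical SD falls with the number of spots, and 13 of the 38 members were on more than 1 spot. Members and all genes were not matched for spot number, so these shares are not on equal terms. The 24 members with no spot in a patch had a median of 0.11, with 19 higher in the male pool, against a median of -0.019 and 43.8% higher over the 20563 genes with no spot in a patch. Over the 26 members with a mean log2 signal above -4, 22 were higher in the male pool, where 41.7% of genes were.

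**Figure D1:**
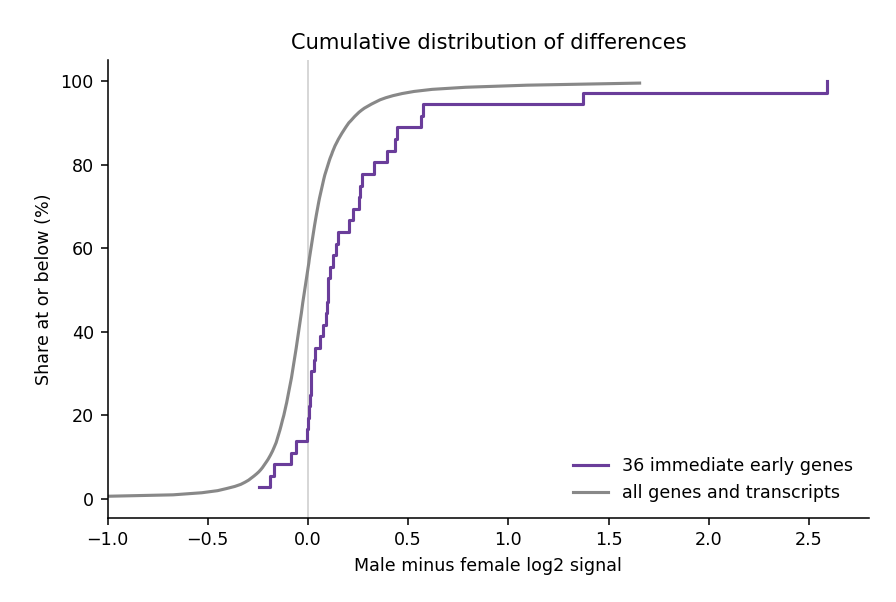
Share of genes (vertical axis, %) at or below each male minus female log2 difference (horizontal axis) for the 36 measured immediate early genes and for all 24134 genes and transcripts on both arrays, drawn for all genes from percentile 0.5 to 99.5. The curve of the members lies to the right of that of all genes, with medians of 0.10 and -0.016.

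**Figure D2:**
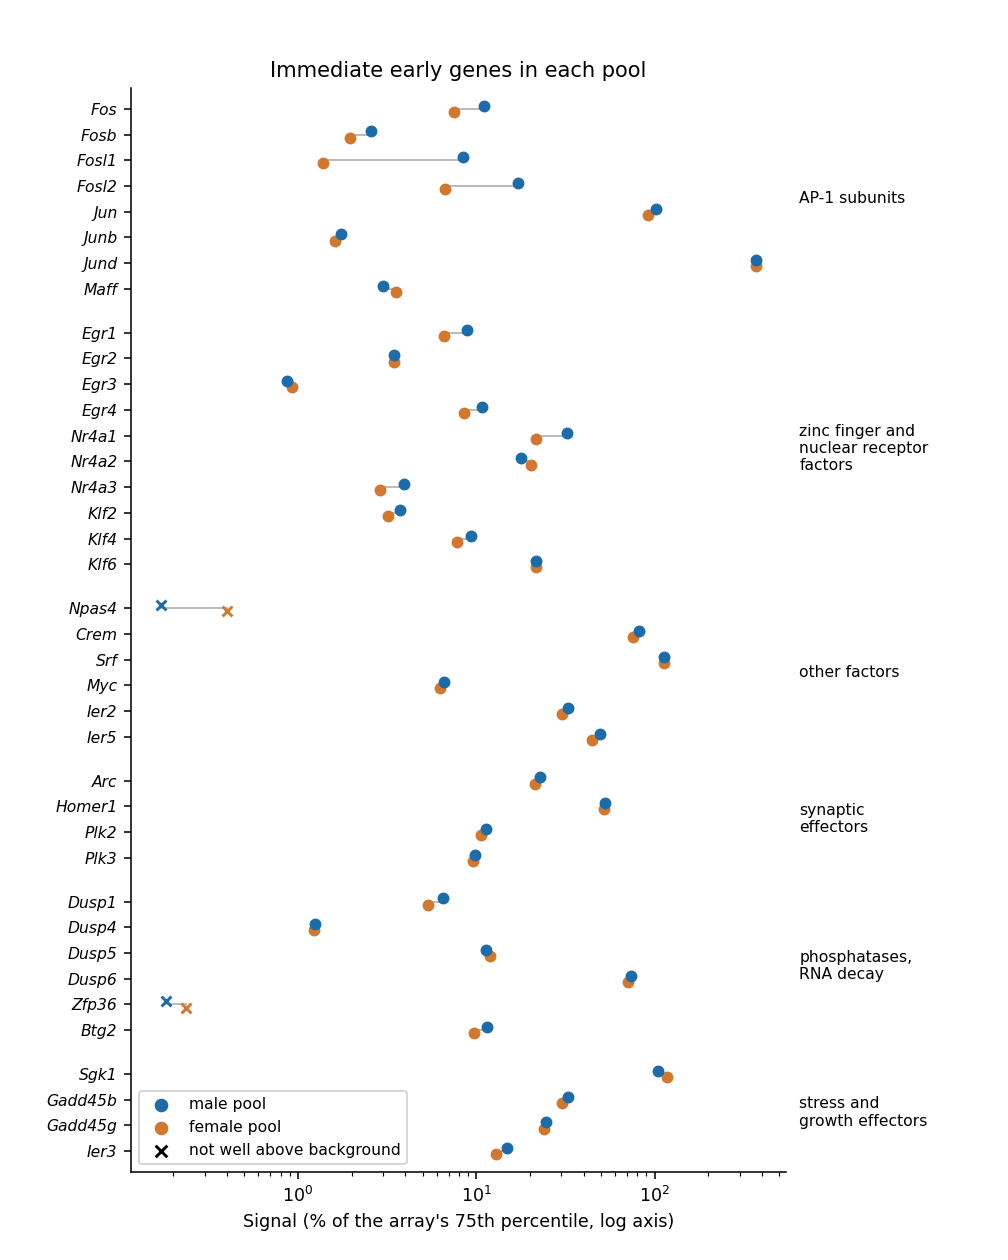
Signal of each member's brightest probe in the male and female pool, as a percentage of the array's 75th percentile on a log axis, grouped by role. Crosses mark Npas4 and Zfp36, which did not pass the background flag on the male or the female array. Most male points lie slightly to the right of the female points, and Fosl1 and Fosl2 stand furthest apart.

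The AP-1 group held the Fos and Jun genes, whose proteins pair through leucine zippers to form a transcription factor of growth and stress responses. The small Maf gene Maff was grouped with them. Of these 8, 7 were higher in the male pool (45.0% of all genes) and Maff was lower. A difference of over 2 technical SD towards the male pool was found in 5 (10.0% of all genes). Fos, the subunit most used to map neuronal activity, was measured on 2 spots, neither in a patch. Its signal was 11.2% and 11.0% in the male pool, against 7.24% and 7.78% in the female pool. Neither male spot overlapped the female spots, and the difference was 0.57 (technical SD 0.069), or 1.48-fold. How many of all probes with repeat spots lacked such overlap was not counted, here or for the members below. Its closest relative Fosb, whose shortened form builds up on repeated stimulation, was at 2.56% in the male pool, against 1.95% in the female pool. That difference of 0.39 was 2.13 times its technical SD, and 0.20 with normexp background correction. Jun, the main partner of Fos, was measured on 10 spots, at 98.5% to 109% in the male pool and 85.8% to 95.4% in the female pool. All 10 spots were higher in the male pool, by 0.086 to 0.23, and the second Jun probe was at 0.20. The spot at 0.23 lay in a patch, and without it Jun averaged 0.13.

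Junb, a partner that often restrains Jun, was at 1.73% in the male pool, against 1.61% in the female pool, a difference of 0.10 that is within its technical SD of 0.18. Jund, the subunit present at rest, was at 373% and 370% in the male and female pools on its brightest probe, a difference of 0.01. With normexp that difference was 0.12, over 2 times the technical SD of 0.038, and the dimmer second Jund probe differed by 0.24. Maff, a small Maf protein without an activation domain, was lower in the male pool, at 3.01% against 3.56% (difference -0.24, technical SD 0.18), and its difference was -0.09 with normexp. Fosl1, a Fos relative of dividing and migrating cells, was at 8.37% in the male pool, against 1.39% in the female pool on its single spot, and 9 of the 18 neighbouring spots were also higher there by 2-fold or more. Its difference of 2.59 was 0.63 with normexp, which here started from the median pixel of a spot and added 50 units. That pixel was 86 units over local background for the male pool and 37 units for the female pool. The processed signals were 184 and 31.3 units in the male and female pools. The part of each step in the smaller difference was not tested. Fosl2 was at 17.2% in the male pool, against 6.65% in the female pool on its brightest probe. There, 3 of 18 neighbours were higher in the male pool by 2-fold or more. That probe differed by 1.37 and the other Fosl2 probes, outside patches, by 0.26 and 0.17, so the size of the Fosl2 difference rested on 1 spot. Those other probes were dim, at 23.6 and 19.2 units in the male pool, against 20.2 and 17.4 units in the female pool. Each had a technical SD of 0.33, which limits what they show of the brighter probe.

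**Figure D3:**
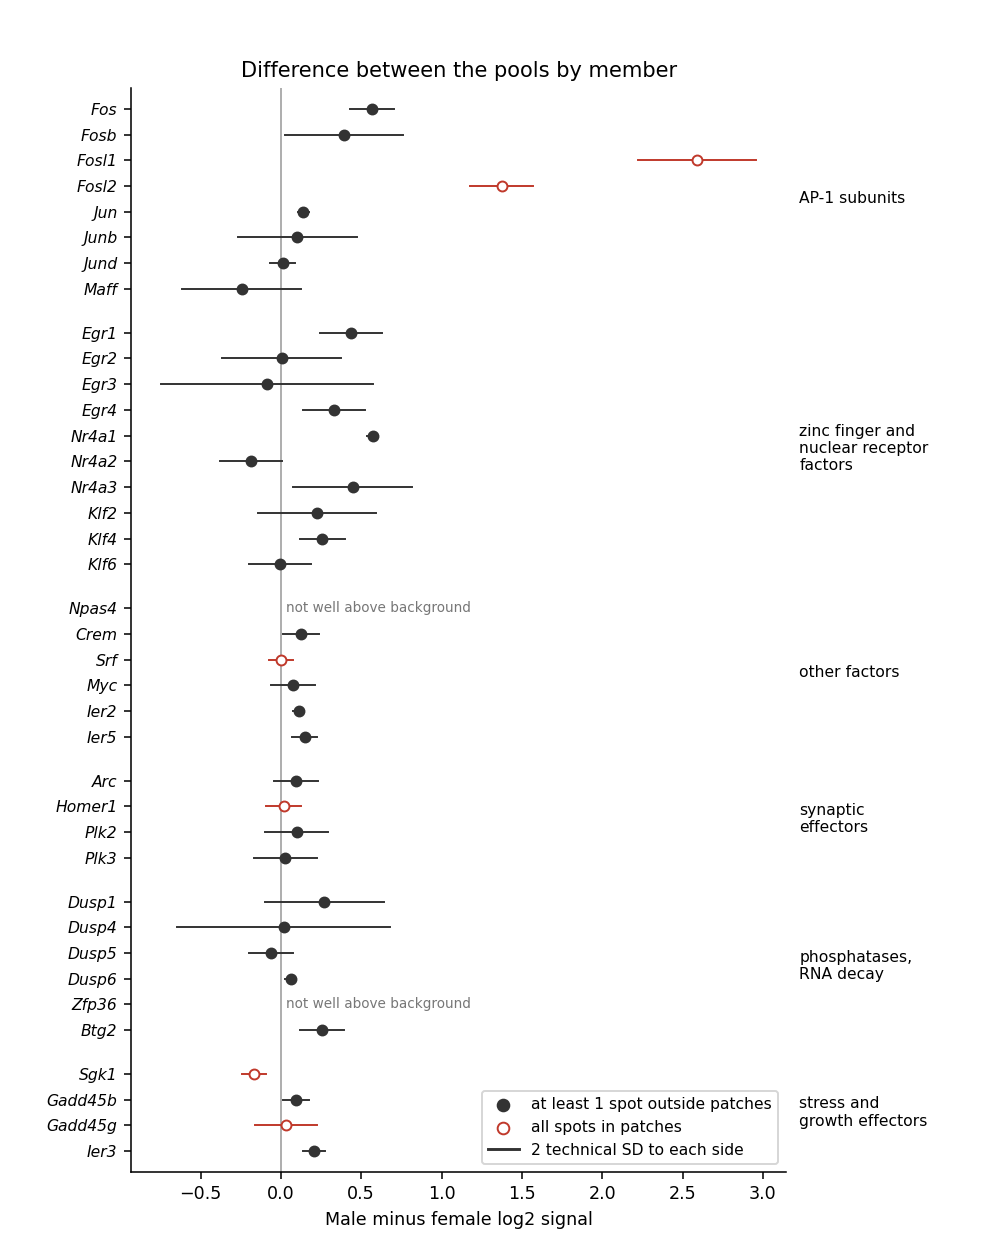
Male minus female log2 signal of each member, grouped by role, with bars of 2 technical SD to each side. Filled points had at least 1 spot outside patches and open red points had none. Nr4a1 and Fos, at 0.57 each, are the largest filled points, and Fosl1 and Fosl2 are open.

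Of the zinc finger and nuclear receptor factors 7 of 10 were higher in the male pool, 5 by over 2 technical SD and none outside 1.5-fold. Nr4a1, an orphan nuclear receptor induced by stress hormones and cyclic AMP, was measured on 10 spots, all outside patches. They ranged from 30.7% to 35.3% in the male pool and from 20.7% to 22.9% in the female pool. No male spot overlapped a female spot, and the spot differences lay between 0.50 and 0.64, with a mean of 0.57 (SD 0.043 over spots), or 1.49-fold. Nr4a3, its relative, was at 3.94% in the male pool, against 2.89% in the female pool, a difference of 0.45 with a technical SD of 0.18, and 0.27 with normexp. Nr4a2, the third of the family and a factor of dopamine neurons, was lower in the male pool, at 17.9% against 20.4%. Its difference of -0.19 was just under 2 technical SD, and its second probe was at -0.13. The family therefore held members of both signs on these arrays.

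The Egr genes encode zinc finger factors of synaptic plasticity and growth responses. Egr1 was at 8.88% in the male pool, against 6.56% in the female pool, a difference of 0.44 with a technical SD of 0.097. Egr4 was at 10.8% in the male pool, against 8.56% in the female pool, a difference of 0.33 with the same technical SD. Egr2, at 3.47% and 3.46% in the male and female pools, and Egr3, at 0.867% and 0.921%, differed by 0.00 and -0.09, and the sign of both depended on the processing. Both were dim, with technical SDs of 0.18 and 0.33.

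Among the Krüppel-like factors, Klf4 was at 9.20% and 9.41% on its 2 male spots, against 7.79% and 7.77% on the female spots, with a difference of 0.26. Klf2, which like Klf4 responds to blood flow in endothelium, was at 3.74% in the male pool, against 3.20% in the female pool, a difference of 0.22 that is 1.21 times its technical SD. Klf6, a factor of tissue injury, was at 21.7% and 21.8% in the male and female pools. Its second probe was at -0.03, so neither probe separated the pools.

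The other transcription regulators were close to 0 or slightly higher in the male pool, with 5 of 5 measured members above 0 and 3 by over 2 technical SD. Ier2, a nuclear protein of the serum response, was measured on 10 spots, at 30.6% to 36.5% in the male pool and 28.4% to 34.6% in the female pool. It was higher in the male pool on 9 of 10 spots; the exception, at -0.15, lay in a patch with 7 of 18 neighbours lower there by 2-fold or more. The mean was 0.11. A second Ier2 probe, on 1 spot in a patch, passed the background flag for the male pool alone, at 84.8 units against 6.36 units in the female pool. Its median pixel was 64 units over local background for the male pool and 16 units for the female pool. The 2 probes of this gene thus disagreed in size, and the one with 10 spots is used. Ier5, a related regulator of heat shock responses, was at 46.7% and 52.1% on its male spots and at 42.5% and 46.6% on its female spots, with a difference of 0.15, and of 0.29 on its second probe. Crem, which encodes cyclic AMP response activators and the early repressor ICER, was at 82.3% in the male pool, against 75.4% in the female pool, a difference of 0.13. Its 3 further probes above background lay between 0.05 and 0.12.

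Srf, the serum response factor itself, was at 113.3% and 113.2% in the male and female pools, a difference of 0.00 on a spot in a patch. Myc, a growth regulator, was at 6.61% in the male pool, against 6.28% in the female pool, with spot differences of -0.01 and 0.16. The spot at -0.01 lay in a patch, so the Myc difference was 0.08 over both spots and 0.16 without that spot. Npas4, a factor induced almost only by neuronal calcium entry, did not pass the background flag in either pool, at 3.75 units in the male pool, against 9.04 units in the female pool. The lowest probe signals that counted as well above background were 15.3 units for the male pool and 12.9 units for the female pool, so no fold is given.

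Of the effectors that act at synapses all 4 were slightly above 0 and none reached 2 technical SD. Arc, which drives removal of AMPA receptors from synapses, was at 22.1% and 23.7% on its male spots and at 20.6% and 22.3% on its female spots. The spots of the pools overlapped, and the difference was 0.09 with a technical SD of 0.069. Homer1, a scaffold of glutamate receptors, was at 52.6% in the male pool, against 52.0% in the female pool, a difference of 0.02 on a spot in a patch whose sign changed with normexp. Plk2 and Plk3, polo-like kinases, Plk2 being known for weakening synapses after strong activity, differed by 0.10 and 0.03. Arc, with a difference of 0.09, lay below Fos, at 0.57, on the same pair of arrays.

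**Figure D4:**
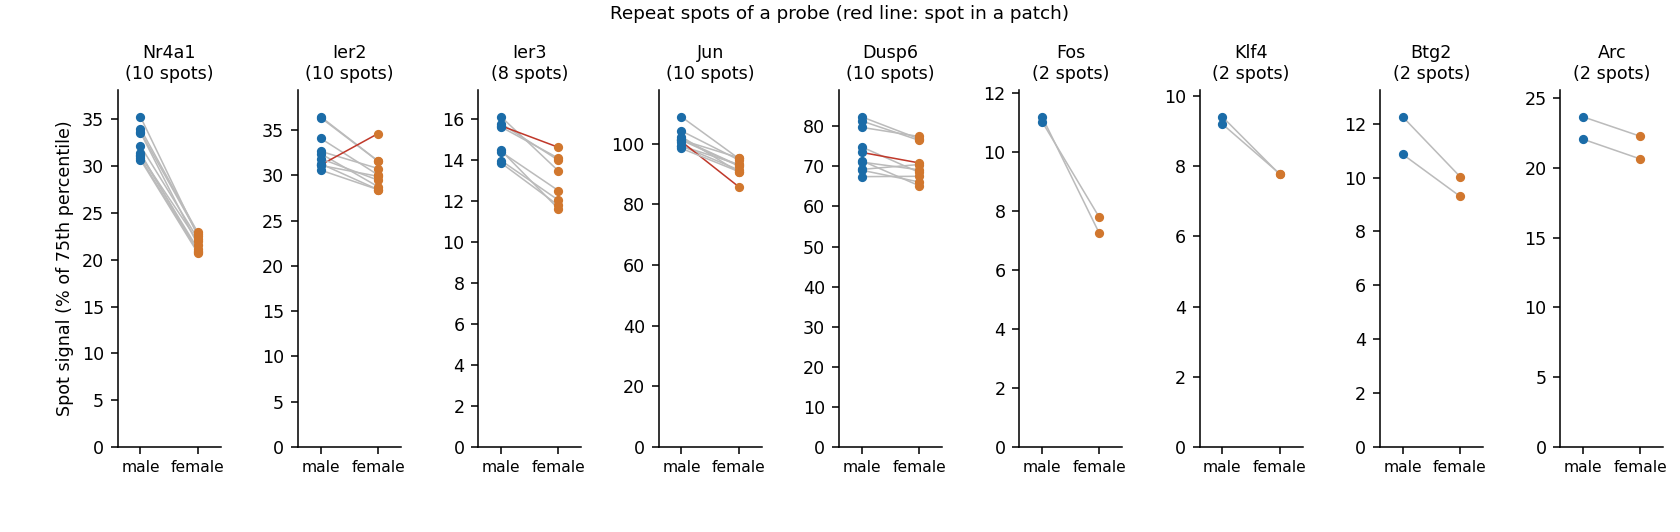
Signal of each repeat spot (% of the array's 75th percentile, axes from 0) in the male and female pool for 9 members measured on 2 to 10 spots, with a line joining the same position on both arrays and red lines for spots in patches. The male and female spots of Nr4a1, Jun, Fos, Klf4 and Btg2 are separate, while those of Ier2, Ier3, Dusp6 and Arc overlap. Spots of Ier5 and Gadd45b, not drawn, were separate too. The share of all probes with separate spots was not counted, so separation is not a trait of these genes.

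Genes that end the response gave 4 of 5 measured members above 0 and 2 of them by over 2 technical SD. Dusp1, a nuclear phosphatase for p38, JNK and ERK that glucocorticoids induce, was at 6.48% in the male pool, against 5.37% in the female pool, a difference of 0.27 with a technical SD of 0.18. Dusp6, the cytoplasmic phosphatase of ERK, was higher in the male pool on 8 of 10 spots, at 67.4% to 82.4% against 65.2% to 77.5% in the female pool, and averaged 0.06, with 1 of the 10 spots in a patch. Dusp4 and Dusp5, nuclear phosphatases of the same family, were at 0.02 and -0.06, each within its technical SD. The sign for Dusp4, which was dim, depended on the processing. Btg2, an antiproliferative factor that promotes RNA decay, was at 10.9% and 12.3% on its male spots and at 9.31% and 10.0% on its female spots. Its difference was 0.26, with no overlap between the pools. Zfp36, which encodes an RNA-decay factor of cytokine messages, did not pass the background flag in either pool, at 4.01 units in the male pool, against 5.28 units in the female pool.

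Of the stress and growth effectors 3 of 4 were higher in the male pool. Ier3, a survival factor of stressed cells, was higher in the male pool on 8 of 8 spots, by 0.10 (a spot in a patch) to 0.32, at 13.8% to 16.1% against 11.6% to 14.6% in the female pool. Gadd45b, a stress sensor linked to DNA demethylation at activity-regulated genes, was at 32.4% and 32.6% on its male spots and at 31.2% and 29.7% on its female spots, a difference of 0.09. The second of these spots, at 0.13, lay in a patch where 5 of 18 neighbours were higher in the male pool by 2-fold or more. Without it the Gadd45b difference was 0.06 and no longer over 2 technical SD. Its relative Gadd45g differed by 0.03 on a spot in a patch. Sgk1, a kinase gene induced by glucocorticoids and mineralocorticoids that raises sodium transport, was the single member lower in the male pool by over 2 technical SD. It was at 104.7% in the male pool, against 117.6% in the female pool, a difference of -0.17 with a technical SD of 0.038. Its spot was in a patch, where 2 of 18 neighbours were higher in the male pool by 2-fold or more.

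The signs of 30 members were the same under every alternative processing that gave a value, 26 positive and 4 negative. The negative ones were Dusp5, Maff, Nr4a2 and Sgk1. The sign changed for Dusp4, Egr2, Egr3, Homer1, Klf6 and Srf, all within 0.1 of 0 as given above. The range over alternatives was 0.45 to 0.58 for Fos, 0.53 to 0.59 for Nr4a1, 0.36 to 0.45 for Egr1, 0.22 to 0.28 for Dusp1 and 0.07 to 0.11 for Arc.

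Medians of other genes of the pathway lay close to 0 or below it. Over all genes 45.0% were higher in the male pool, 10.0% were higher by over 2 technical SD and 12.9% lower by over 2. Among 35 measured rapid response genes outside the 38, 20 were higher in the male pool and 15 lower, 6 in each direction by over 2 technical SD. Their median was 0.019, with a sign that turned with quantile normalization and above a mean log2 signal of -4. Atf3, a stress-induced factor that dimerises with Jun proteins, was at 3.39% in the male pool, against 1.85% in the female pool, and Apold1, an early gene of endothelium, was at 5.72% and 3.29% in the male and female pools. Delayed activity response genes, the later wave in neurons, had 7 members higher in the male pool and 14 lower, 9 of the 14 by over 2 technical SD, with a median of -0.10. Lists and all genes were not matched for brightness or spot number, so these shares are not on equal terms. Vgf and Rgs4, for example, on 8 spots each, had technical SDs of 0.013 and counted at -0.11 and -0.10. Bdnf, a neurotrophin whose transcription follows neuronal activity, was at 4.56% in the male pool, against 6.05% in the female pool. Timp1, an inhibitor of matrix proteases, went the other way, at 23.0% in the male pool, against 15.6% in the female pool. Upstream kinases and factors had 8 of 23 higher in the male pool and a median of -0.032. The single gene of that list past 2-fold, Mef2a, was at 6.15% in the male pool, against 13.7% in the female pool on a spot in a patch.

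Markers of other cell types differed between the same pools, where 45.0% of all genes and transcripts were higher in the male pool. All 13 markers of meningeal fibroblasts were higher in the male pool, with summed signals of 580 in the male pool, against 287 in the female pool in the same percentage units. The 4 measured red blood cell markers were all higher, with sums of 179 in the male pool, against 101 in the female pool. Of 11 endothelial markers 7 were higher, with sums of 384 and 318 in the male and female pools, and of 12 microglial and macrophage markers 9 were higher, with sums of 910 and 854. Pituitary markers, 4 of 5 measured higher, had sums of 144 in the male pool, against 64.8 in the female pool. Most of the male sum came from Cga, the shared subunit of glycoprotein hormones, on a spot in a patch. Cga was at 84.9% in the male pool, against 20.8% in the female pool. Tshb, the thyrotropin subunit, was at 11.7% in the male pool, against 0.939% in the female pool on a spot outside patches. Gh1 passed the background flag in neither pool and Prl in the female pool alone, on a spot in a patch. Oligodendrocyte markers were higher in 7 of 8, astrocyte markers in 8 of 8, and choroid plexus and ependymal markers in 5 of 5 measured, with medians of 0.12, 0.081 and 0.25. Mural cell markers were higher in 6 of 8 and hypothalamic markers in 5 of 14 measured, with medians of 0.052 and -0.052. Of 10 neuronal markers 1 was higher, with sums of 2685 in the male pool, against 2857 in the female pool. Fshb, Kcnj13, Kl, Ly6c, Mrc1 and Slc4a1 also missed the flag on 1 or both arrays. Immediate early genes are expressed in many of these cell types, and the part of these markers in the members' differences was not tested. In pooled tissue, more cells of a type and more RNA per cell cannot be told apart.

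**Figure D5:**
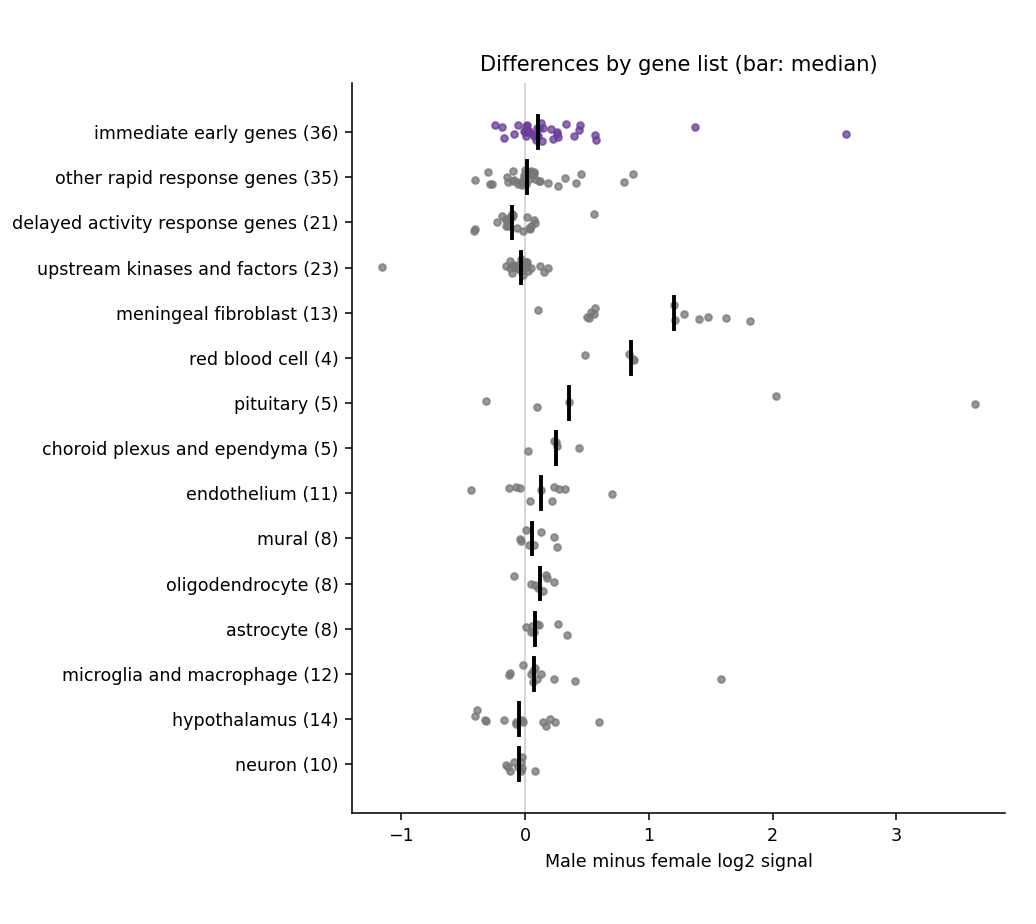
Male minus female log2 signal of each gene well above background on both arrays in the pathway and cell type lists, with the number of genes in parentheses and a black bar at the list's median. The immediate early genes centre at 0.10, the delayed activity response genes at -0.10, and the meningeal fibroblast and red blood cell markers at 1.20 and 0.86.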

How the data were processed

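RNA of 1 pool per sex was measured on 1 single-colour Agilent array each. Per the file headers, the deposited array files hold processed signal, a linear intensity with background subtracted and no scaling between arrays, and median spot and background intensity. Processed signal was not just the spot median minus local background. For Jund it was 8218 and 8348 units in the male and female pools, against 7280 and 6886 units over local background. The software's steps between these 2 measures are part of every difference given here and were not examined. The headers name Feature Extraction 11.5.1.1, protocol GE1_1105_Oct12 and design build rn4, and the submitters' processing notes name version 9.1. The deposited series matrix holds intensity values that, checked against the array files, equal processed signal divided by the 75th percentile times 100. Both arrays were on 1 slide and in 1 scan, the male pool at position 1 and the female pool at position 2. Position and sex therefore cannot be told apart.

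Of 58717 rat transcript spots, 664 flagged as outliers on 1 or both arrays were dropped, and none was saturated. Log2 signal was centred on each array's 75th percentile and averaged over a probe's spots. Accessions were matched to symbols of a GRCr8 gene table, used for names, and 21106 of 45591 probes (46.3%) had one. The probe with the highest mean signal stood for a gene. A probe counted as well above background when over 50% of its spots did. The technical SD came from probes with at least 8 spots, divided by the square root of a member's spots. No test was run, since each sex had 1 array. Of the named genes, all members are accounted for, and pathway lists contributed every gene past 2-fold or, with none, the 2 furthest from 0. The members, lists and alternatives were chosen with earlier results of these data known. The files lacked a mean signal column, so normexp (limma 3.58.1, R 4.3.3, offset 50) used spot medians. Other alternatives were median centring, quantile normalization, series matrix values, a filter at a mean log2 signal of -4, genes on at least 1 array, the mean over probes, no spots in patches, and outlier spots kept. The procedure was tested on simulated data whose only noise was the fitted technical SD, so that test did not cover patches, arrays or rats.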

Additional observations from a re-analysis of the deposited data

How the results depend on the processing

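The median difference of the members was 0.10 and lay between 0.087 (quantile normalization) and 0.13 (without spots in patches) over 9 alternatives. The number higher in the male pool was 27 of 36 with quantile normalization, 29 with normexp and 31 with median centring, where 40.7%, 53.5% and 49.3% of all genes were higher. Without spots in patches 31 members had a value, and 26 of them were higher, where 44.4% of all genes were. The count of members over 2 technical SD higher in the male pool was added after the data were seen. It ran from 14 (among 26 brighter members) to 18 (mean over probes), where 11.7% and 9.93% of all genes were so. The count lower was 1, or 2 with the mean over probes. Over all genes 12.9% were that much lower with the main processing and 12.5% with the mean over probes. Without spots in patches Sgk1 had no value, so the 1 member counted there was another. The number at least 2-fold apart was 1 with normexp, 1 above a mean log2 signal of -4, 1 with the mean over probes and 0 without spots in patches. The number at least 1.5-fold apart was 3 with median centring, 1 above a mean log2 signal of -4 and 0 without spots in patches. With normexp 7 members moved by more than their technical SD. It adds 50 units and starts from spot medians rather than from processed signal. For Jund, 1 of the 7, the median over local background was 7280 units for the male pool and 6886 units for the female pool. Its processed signals were 8218 and 8348 units. The part of each step in these moves was not tested. The medians of the 3 pathway lists moved by less than the median technical SD of their genes. Members with a mean log2 signal of -4 or lower (10 of 36) carry technical SDs of 0.18 or more, which limits what their single spots can show. No paired analysis was possible because each sex had 1 array.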
